A study of Oryza sativa with 24 samples.

Results

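OsTDL1B (Os10g0207500) is 1 of 2 genes whose name or description in the deposited rice annotation refers to TPD1 (TAPETUM DETERMINANT1), a small secreted protein of Arabidopsis. These 2 are called TPD1-like here, and sequences were not searched for others. OsTDL1B is 1 of the 38866 genes in the table. The gene was chosen by its own measured values, a level near 0 on hormone-free N6 medium, a high level in wild-type on callus-inducing medium (CIM) from 2 d and a low level in 35Spro:OsMIR393b, so its levels, in CPM (counts scaled to a common library size), are given as a description without a test. RNA was sequenced from cultured rice seeds of the Nipponbare background. The line 35Spro:OsMIR393b (genotype OEMIR393b in the labels) overexpresses the microRNA OsMIR393b from the 35S promoter of cauliflower mosaic virus, which is active in most tissues, and miR393 targets transcripts of the auxin receptors OsTIR1 and OsAFB2. The groups are the line and wild-type (NIP in the labels), each on N6 for 2 d or on CIM, which is N6 with the synthetic auxin 2,4-D, for 2, 5 or 7 d, with 3 libraries in each of the 8 groups and 24 libraries in all. The methods describe each sample as scutella pooled from several seeds, where the labels name mature embryos. N6 was sampled at 2 d alone, so at 5 and 7 d the medium and the length of culture differ at once from the N6 libraries. Whether the line is a single transgenic event is not given in the sources used here.

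In Arabidopsis, TPD1 is secreted by precursors of the pollen mother cells and binds EMS1, a leucine-rich repeat receptor kinase on neighbouring anther cells, which then become tapetum, the layer that feeds developing pollen. The rice counterpart of EMS1 is MSP1, and OsTDL1A, the other TPD1-like gene, is known in rice to act with MSP1 in limiting the number of cells that become sporocytes. In Arabidopsis, EMS1 takes SERK proteins as co-receptors and shares its downstream steps with the brassinosteroid receptor BRI1, namely GSK3-like kinases that hold back BZR transcription factors. The scutellum, the single cotyledon of grasses, which takes up nutrients from the endosperm, is the tissue from which rice callus arises on CIM. OsTDL1B lies on the minus strand of chromosome 10 of IRGSP-1.0, from 7624066 to 7625061, a span of 996 bp. The file describes it as similar to TPD1 and gives no exon structure. Its nearest annotated neighbour is 7288 bp away, so no annotated gene overlaps it.

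Library totals ran from 50341636 to 70796624 counts (median 64857793). OsTIR1, named TIR1 in the file, ranged between 19.1 and 29.5 CPM over the line (12 libraries) and between 69.4 and 117 CPM over wild-type (12 libraries). OsAFB2 had 54.9 to 90.5 CPM in the line and 96.2 to 156 CPM in wild-type. Neither gene had a library of one genotype within the range of the other, so the labels of the line and of wild-type were not contradicted. The 3 markers of the germinating scutellum, a pair of alpha-amylase genes and an isocitrate lyase gene, summed to 326.7 CPM or more in every library. In bulk tissue a smaller number of cells of a type and less RNA per cell cannot be told apart.

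OsTDL1B was close to undetected on N6 and was among the more abundant transcripts of wild-type scutella after 2 d on CIM. On N6 the 3 libraries of the line had 0.128, 0.0606 and 0.309 CPM and those of wild-type had 0.160, 0.108 and 0.356 CPM. These are 4 to 23 counts per library. A count of 4 was commoner among genes (median 641.5 per library) than 3 (202.5) or 5 (146), so the smallest step was taken as 4 counts and a floor of 3 such steps, 12 counts per library, was set. In each genotype 2 of the 3 N6 libraries lay under that floor, and the genotypes overlapped.

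On CIM, 35Spro:OsMIR393b libraries had 4.06, 0.902 and 1.81 CPM of OsTDL1B at 2 d. At 5 d the 3 libraries had 54.2, 13.1 and 2.30 CPM, and at 7 d they had 0.295, 1.04 and 1.40 CPM. Every library of the line on CIM lay below every wild-type library on CIM of the same day. The line also lay above its own N6 libraries at 2 and 5 d without overlap, whereas the 7 d libraries overlapped N6. The means were 2.26 ± 1.62, 23.2 ± 27.4 and 0.911 ± 0.563 CPM (SD, n = 3 each), and the ratio of the wild-type mean to that of the line was 137, 11.1 and 301 at 2, 5 and 7 d.

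In wild-type on CIM the libraries had 182, 208 and 536 CPM of OsTDL1B at 2 d. They had 167, 280 and 329 CPM at 5 d and 325, 192 and 306 CPM at 7 d. All 9 libraries lay far above N6 and the 3 days overlapped, with no order among 2, 5 and 7 d beyond the spread. The means were 309 ± 197, 258 ± 83.1 and 274 ± 72.2 CPM (SD, n = 3 each), and replicate 3 at 2 d stood above the other wild-type libraries. Without it the 2 d mean is 195 CPM, the lowest of the 3 days in place of the highest, so the ratios that use the 2 d mean rest partly on that library. The ratio of the means over N6 was 1485 at 2 d, 1242 at 5 d and 1319 at 7 d, with the N6 mean resting on 7 to 23 counts per library. Even the lowest CIM library exceeded the highest N6 library by 513, 469 and 539 times at 2, 5 and 7 d. Measured per length, as FPKM (fragments scaled by gene length and library size), OsTDL1B ranked between 109th and 517th of all 38866 genes in the 9 wild-type libraries on CIM.

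The spread within the line was largest at 5 d, where the highest library had 23.5 times the lowest. Replicate 1 of that group, with 54.2 CPM, held 3666 counts and ranked 1570th by FPKM, and without it the mean of the group is 7.69 CPM. All 3 of the 7 d libraries of the line lay below all 3 of the 5 d libraries. In descending order of the means, wild-type at 2, 7 and 5 d on CIM overlapped with each other and stood apart from all other groups. They were followed by the line on CIM at 5, 2 and 7 d, then by wild-type and the line on N6, and in this lower part of the order each group overlapped with the next.

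**Figure D1:**
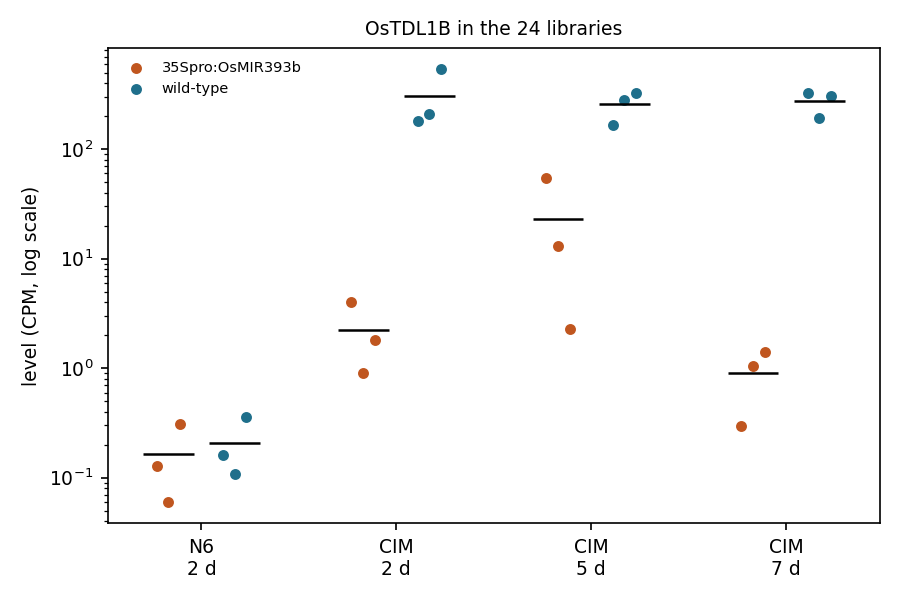
OsTDL1B level in CPM on a log axis for each of the 24 libraries, by medium and day, with 35Spro:OsMIR393b left of wild-type; each point is a library and each bar is the mean of 3. The 9 wild-type libraries on CIM sit between 167 and 536 CPM, those of the line on CIM between 0.295 and 54.2 CPM, and the N6 libraries of both genotypes below 0.36 CPM.

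The other TPD1-like gene, OsTDL1A (Os12g0472500), did not follow this pattern. Its level was 4.78, 7.06, 4.10 and 3.01 CPM in the line (means on N6 and on CIM at 2, 5 and 7 d) and 6.68, 8.51, 4.81 and 4.72 CPM in wild-type. In edgeR's quasi-likelihood test over 29710 genes its log2 fold change of wild-type on CIM against N6 was 0.35 (SE 0.31, adjusted p = 0.48) at 2 d and -0.50 (SE 0.31, adjusted p = 0.19) at 7 d. Its genotype difference in that change was not called at any day, with adjusted p of 0.91, 0.71 and 0.81 at 2, 5 and 7 d. In FPKM, which allows levels of different genes to be compared, OsTDL1B over OsTDL1A was 0.0436 in the line and 0.0402 in wild-type on N6. On CIM at 2, 5 and 7 d the ratio was 0.422, 7.76 and 0.396 in the line and 48.6, 70.6 and 76.4 in wild-type.

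**Figure D2:**
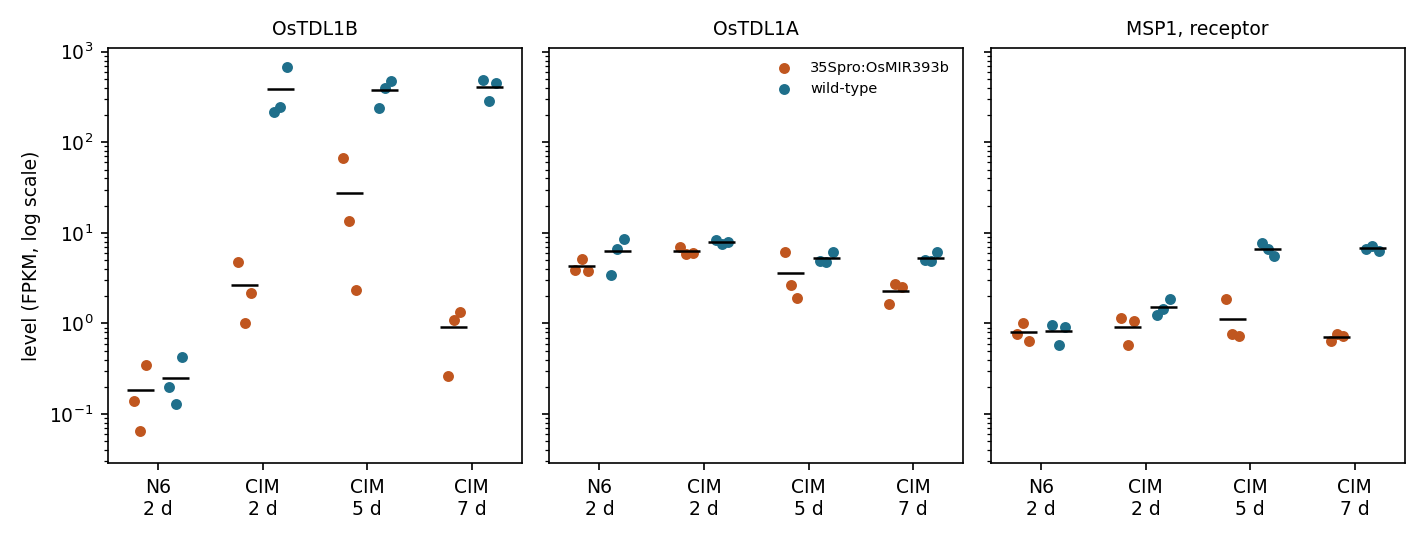
Levels of both TPD1-like genes and of the receptor gene MSP1 in FPKM on a shared log axis, by medium and day, with 35Spro:OsMIR393b left of wild-type; points are libraries and bars are means of 3. In wild-type on CIM, OsTDL1B averaged 383, 374 and 408 FPKM at 2, 5 and 7 d, against 7.88, 5.29 and 5.34 FPKM for OsTDL1A and 1.52, 6.69 and 6.73 FPKM for MSP1.

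The other genes of the pathway described above, with genes annotated as similar to its co-receptors, were tested next, to ask whether they change where OsTDL1B is high. The pathway is that known for TPD1 and OsTDL1A, and whether OsTDL1B acts through MSP1 was not tested. The list holds 28 genes, OsTDL1A among them, and 24 passed the filter on low counts. Of the 28, 13 are co-receptor-like genes listed by their description alone, and their role in this pathway was not tested. The BZR-like gene Os01g0176900 and the co-receptor-like genes OsRLCK210, OsBDG1 and Os11g0514700 did not pass and had at most 0.06 CPM as the mean of any group. A gene was called at a Benjamini-Hochberg adjusted p under 0.05 over all genes tested and an absolute log2 fold change above 1. In wild-type at 2 d, 1 pathway gene was called higher and 1 lower, where 4.3% of all genes tested were called higher and 4.01% lower. At 5 d, 6 were higher and 3 lower (12.6% and 14.6% of all genes), and at 7 d, 7 were higher and 3 lower (14.2% and 14.7% of all genes). The median log2 fold change of the 24 genes was 0.31, 0.66 and 0.87 at 2, 5 and 7 d, against 0.00427, 0.0167 and 0.0174 over all genes. With library totals in place of TMM factors (edgeR's scaling of libraries to a common composition), the split became 8 higher and 2 lower at 5 d and 11 higher and 2 lower at 7 d. The shares of all genes then became 16.5% higher and 12% lower at 5 d, and 19.6% higher and 11.5% lower at 7 d. Over all genes the median change was then 0.25 at 5 d and 0.29 at 7 d.

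The genotypes were compared as the change of the line against its N6 libraries minus the change of wild-type. At 2 d, 0 of the 24 genes were called in edgeR and 0 in DESeq2, with 4 at an unadjusted p under 0.05, where 0.283% of all genes were called higher in the line and 0.252% lower. At 5 d, 1 gene was higher in the line and 6 lower (11.8% and 6.5% of all genes). At 7 d, 2 were higher and 10 lower (15.5% and 16.1% of all genes). With library totals the split was 1 and 8 at 5 d, and 1 and 12 at 7 d, beside 8.37% higher and 12.6% lower of all genes at 5 d and 9.17% and 27.1% at 7 d. The median of all genes was -0.33 and -0.60 on that scale. Without wild-type CIM 5 d replicate 1, 3 pathway genes were called at 5 d in place of 7, where 10.7% of all genes were higher and 4.72% lower. Without line CIM 5 d replicate 1, 9 were called (2 higher and 7 lower), and the shares of all genes were 12.7% higher and 10.6% lower.

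The receptor gene MSP1 (Os01g0917500), whose loss in rice gives extra sporocytes, rose in wild-type at 5 and 7 d. In the line its libraries had 3.80, 5.09 and 3.14 CPM on N6. They had 5.64, 3.0 and 5.12 CPM on CIM at 2 d, 8.73, 4.26 and 4.09 CPM at 5 d, and 3.97, 4.19 and 4.4 CPM at 7 d. All of these libraries but the highest at 5 d lay below 6 CPM.

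In wild-type, MSP1 had 4.46, 2.79 and 4.36 CPM on N6 and 6.0, 7.21 and 8.47 CPM at 2 d on CIM. It had 31.4, 27.2 and 22.4 CPM at 5 d and 26.1, 28.0 and 25.0 CPM at 7 d. The 5 and 7 d libraries overlapped with each other and lay above every library at 2 d and on N6. Its log2 fold change against N6 was 0.90 (SE 0.28, adjusted p = 0.031) at 2 d, short of the fold limit. It was 2.80 (SE 0.29, adjusted p = 2.7e-07) at 5 d and 2.77 (SE 0.29, adjusted p = 2.5e-07) at 7 d, and these edgeR calls held whichever library was left out. The genotype difference was -2.29 (SE 0.39, adjusted p = 0.00024) at 5 d and -2.71 (SE 0.40, adjusted p = 2.0e-05) at 7 d.

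The co-receptor genes proper were abundant and nearly flat. OsSERK1 (TBP1 in the file, Os08g0174700) ranged between group means of 61.4 and 93.7 CPM in the line and of 80.1 and 108 CPM in wild-type. OsSERK2 (Os04g0457800) ranged between 44.4 and 57.4 CPM in the line and between 48.6 and 59.1 CPM in wild-type. Neither passed the fold limit of 1 in any of the 6 comparisons. For both genes the fold changes of wild-type on CIM against N6 were negative, between -0.43 and -0.09 on the log2 scale.

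Genes annotated as similar to BAK1, the Arabidopsis co-receptor of BRI1, moved in both directions. Of the 13 in the list, 10 passed the filter. SEPK1 (Os06g0274300) averaged 5.79, 3.38, 7.51 and 17.4 CPM in the line (N6 and CIM at 2, 5 and 7 d) and 4.90, 1.3, 0.81 and 1.15 CPM in wild-type. In wild-type it fell at 2 d (log2 fold change -1.92, SE 0.37, adjusted p = 0.0015 in edgeR) and stayed lower at 5 and 7 d. At 7 d the 3 libraries of the line had 20.6, 16.9 and 14.5 CPM, against 1.23, 0.722 and 1.49 CPM in wild-type. OsSERL5 (Os01g0171000) fell in wild-type to 20.5 and 20.2 CPM at 5 and 7 d, against 54.3 CPM on N6. OsSERL3 (Os02g0728500) rose to 13.2 and 13.9 CPM in wild-type at 5 and 7 d, against 5.59 CPM on N6. Without wild-type CIM 5 d replicate 1 the 5 d change of OsSERL3 was 0.99 and was no longer called, and its genotype difference at 5 d was lost without wild-type N6 replicate 2, wild-type CIM 5 d replicate 1 or line CIM 5 d replicate 2 (adjusted p from 0.051 to 0.071). Os08g0255500 rose in wild-type at 7 d to 42.7 CPM, against 19.7 CPM on N6 (log2 fold change 1.12, SE 0.12). Os10g0533150 rose to 3.88 and 2.52 CPM at 5 and 7 d, against 0.955 CPM on N6, and its 7 d call was lost in 4 of the 6 fits that left out a library (adjusted p from 0.051 to 0.084). Os10g0428200 missed the fold limit in wild-type at 7 d (0.99), and its genotype difference of -1.31 was called.

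OsRLCK54 (Os01g0935800) went a different way in the line, where its libraries had 0.931, 0.512 and 0.124 CPM at 5 d and 0, 0 and 0.110 CPM at 7 d. In wild-type it had 4.67, 2.54 and 3.86 CPM at 5 d and 2.29, 1.5 and 1.97 CPM at 7 d. On N6 it had 5.91, 4.82 and 5.70 CPM in the line and 2.70, 4.4 and 3.37 CPM in wild-type. The line was thus lower than wild-type at 5 and 7 d, without overlap, and higher on N6, again without overlap. OsRLCK184 (Os05g0371600) had at most 1.73 CPM as a group mean, and its called difference at 7 d was lost in 10 of the 12 fits that left out a library (adjusted p from 0.053 to 0.092).

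Among receptors that share downstream steps with the TPD1 receptor, OsBRI1 (D61 in the file, Os01g0718300), the main brassinosteroid receptor of rice, had 46.2, 61.1, 57.6 and 41.9 CPM in the line and 53.1, 74.4, 144 and 200 CPM in wild-type (N6 and CIM at 2, 5 and 7 d). It rose in wild-type at 5 d (log2 fold change 1.44, SE 0.20) and at 7 d (1.91, SE 0.20, adjusted p = 2.3e-07 in edgeR). Its close relative BRL1 (Os09g0293500) rose to 62.7 CPM at 5 d and 79.0 CPM at 7 d, against 22.8 CPM on N6. BRL3 (Os08g0342300) fell to 8.01 CPM at 5 d and 8.90 CPM at 7 d, against 17.8 CPM on N6, and its 7 d change of -1.0 lay at the limit of the fold filter. Both BRL3 calls were lost with library totals (-0.92 and -0.73), and that at 7 d also without wild-type N6 replicate 2 or 3 or wild-type CIM 7 d replicate 2. The genotype difference of BRL3 at 7 d was 1.15 and was lost with library totals (0.61, adjusted p = 0.074) and with limma on FPKM (0.60, adjusted p = 0.084). In the line BRL1 had group means from 22.1 to 29.6 CPM and BRL3 from 11.4 to 17.3 CPM. The called difference between the genotypes in OsBRI1 at 5 d was -1.12, and it lay between -0.99 and -0.98, short of the fold limit, without wild-type N6 replicate 1, wild-type CIM 5 d replicate 1 or line CIM 5 d replicate 3. That of BRL1 at 5 d was -1.14 and was -0.93 without wild-type CIM 5 d replicate 1.

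GSK2 (Os05g0207500), a GSK3-like kinase that restrains brassinosteroid signalling in rice, was the pathway gene called higher in wild-type at 2 d, where MSP1 (log2 fold change 0.90, adjusted p = 0.031) and BZR1 (0.88, adjusted p = 0.0025) were short of the fold limit. Its libraries had 24.8, 24.8 and 22.0 CPM in the line at 2 d, against 44.8, 48.0 and 49.2 CPM in wild-type. On N6 it had 11.5, 11 and 11.6 CPM in the line and 10.2, 16.0 and 16.6 CPM in wild-type. The log2 fold change in wild-type was 1.73 (SE 0.39, adjusted p = 0.0043 in edgeR) at 2 d, 2.17 (SE 0.39) at 5 d and 2.26 (SE 0.39) at 7 d. At 7 d the line had 4.43, 15.4 and 8.20 CPM and wild-type 69.8, 75.3 and 60.6 CPM, and the difference in the change was -2.54 (SE 0.54, adjusted p = 0.00076 in edgeR). The called difference at 5 d (-1.66) was lost without any of wild-type N6 replicate 1, wild-type CIM 5 d replicate 1, line CIM 5 d replicate 2 or line CIM 5 d replicate 3, with adjusted p from 0.058 to 0.066. GSK1, GSK4 and Os02g0236200, the other 3 kinases, were not called in wild-type at any day with TMM factors.

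With TMM factors none of the BZR transcription factor genes passed the fold limit. With library totals more pathway genes were called higher in wild-type at 5 and 7 d, and those gained are not named here. BZR1 (Os07g0580500) had 9.16, 12.3, 17.9 and 17.5 CPM in the line and 10.2, 18.8, 19.7 and 19.2 CPM in wild-type (N6 and CIM at 2, 5 and 7 d). In wild-type the log2 fold changes of BZR1 were 0.88, 0.94 and 0.91 (SE 0.18 each) at adjusted p of 0.0025, 0.00026 and 0.00033 in edgeR. At 5 and 7 d its difference between the genotypes was 0.03 (SE 0.25) at each day.

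**Figure D3:**
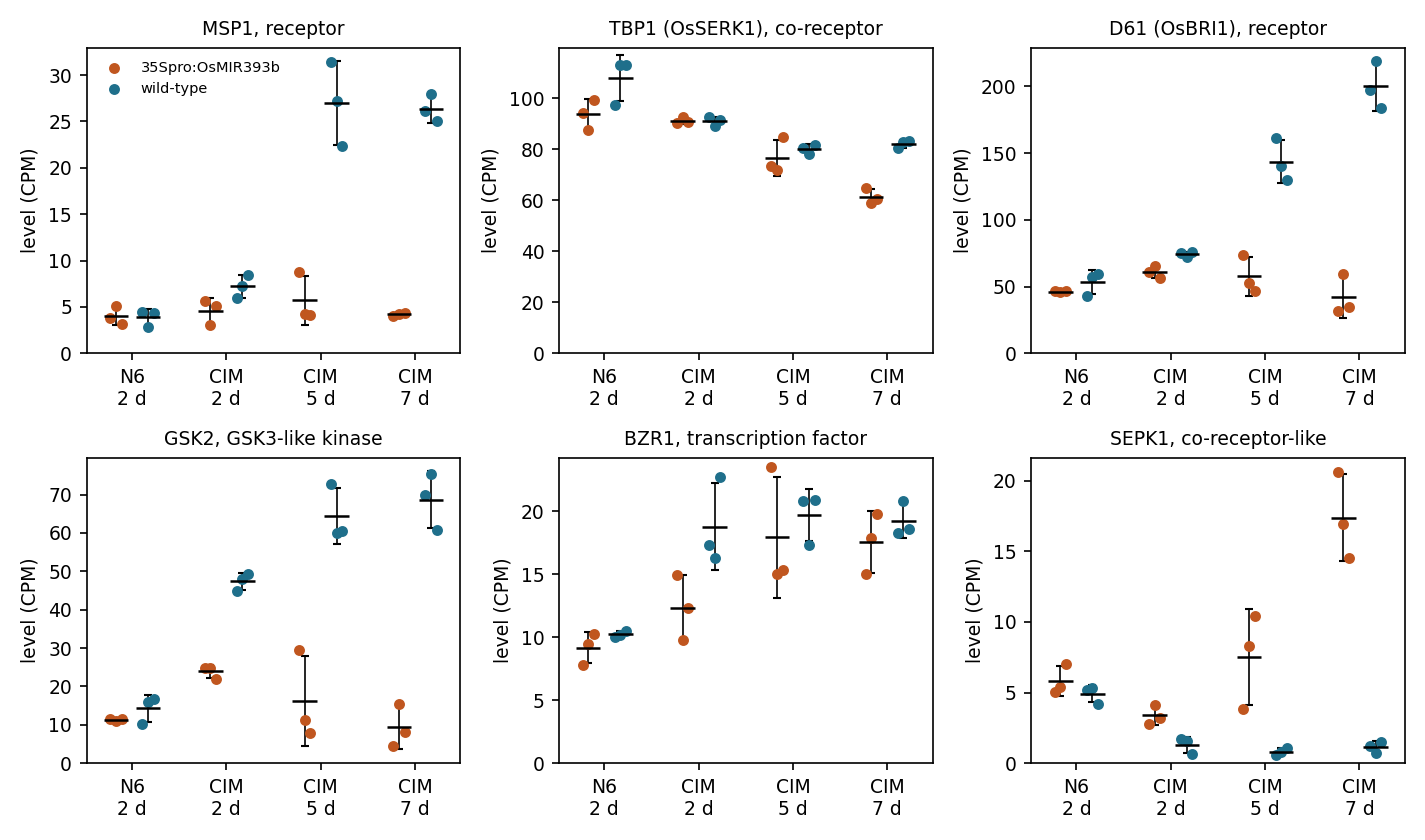
Levels in CPM of 6 pathway genes by medium and day, on linear axes that start at 0, with 35Spro:OsMIR393b left of wild-type; points are libraries, bars are means and whiskers are SD of 3. MSP1, OsBRI1 (D61) and GSK2 are higher in wild-type than in the line at 5 and 7 d, SEPK1 is higher in the line, and OsSERK1 (TBP1) and BZR1 differ little.

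**Figure D4:**
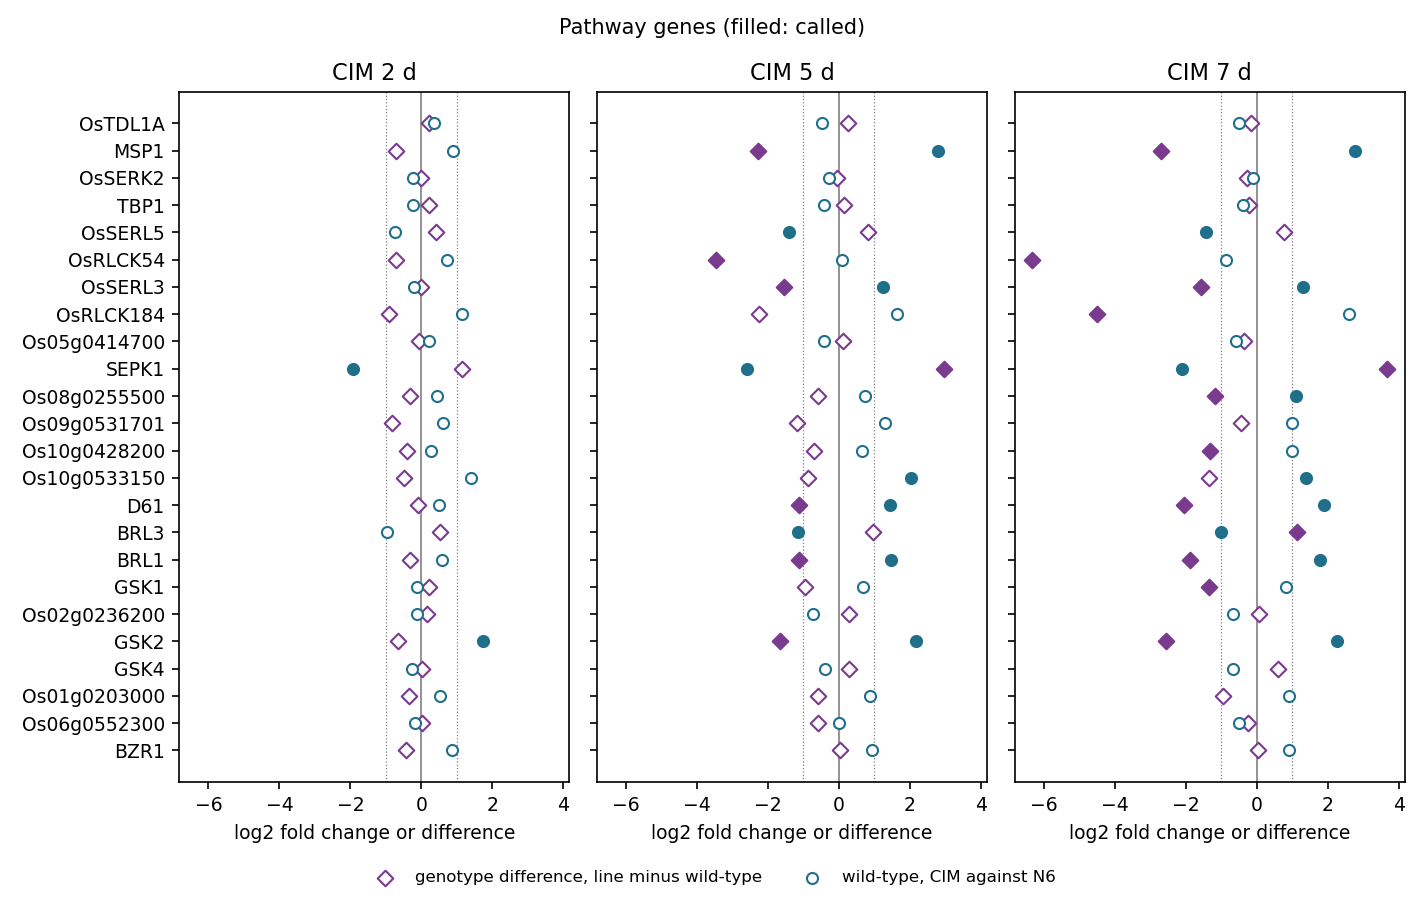
Log2 fold change of wild-type on CIM against N6 (circles) and the difference in that change, line minus wild-type (diamonds), for the 24 pathway genes tested at 2, 5 and 7 d; filled symbols were called and dotted lines mark the fold limit of 1. In wild-type 2, 9 and 10 genes were called at the 3 days, and 0, 7 and 12 for the genotype difference.

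TPD1-like signals are known from anthers, so a list of 14 rice genes of the tapetum and sporocytes was examined. OSC6 and OsbHLH142 (TIP2) were at 0 in every library, and TDR, UDT1, OsMS1 (PTC1) and OsMS2 (DPW) had at most 0.51 CPM as a group mean. Of the 3 tapetum markers, CYP703A3, an enzyme of the pollen wall, had group means of 1.18 to 4.64 CPM, CYP704B2 had group means of 0.33 CPM or less and OSC6 was at 0. Summed within each library, the 3 markers reached 1.71 to 6.06 CPM across libraries of the line and 0.866 to 2.27 CPM across those of wild-type. Of the 11 genes tested, 1 was called higher and 0 lower in wild-type at 2 d (4 at an unadjusted p under 0.05 in edgeR), 4 higher and 2 lower at 5 d (GAMYB and OsTGA10), and 3 higher and 1 lower at 7 d. The shares of all genes called were those given above, and the median log2 fold change of the 11 genes was 0.19, 0 and 1.15. For the genotype difference, 0 were called at 2 d in edgeR and 0 in DESeq2 (1 at an unadjusted p under 0.05), 1 was higher in the line at 5 d (GAMYB), and at 7 d 1 was higher (GAMYB) and 1 lower (MEL1). The 11 include MIL1 and WDA1, which were at 0 in all N6 libraries and gave no usable test of that difference.

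MIL1 (Os07g0151100), a glutaredoxin needed for the entry of rice germ cells into meiosis, had the profile most like that of OsTDL1B among these. It was at 0 in all N6 libraries of both genotypes. In the line it had 0, 0 and 0.416 CPM at 2 d, 3.53, 2.00 and 0.0177 CPM at 5 d and 0, 0 and 0.147 CPM at 7 d. In wild-type it had 2.09, 1.41 and 4.54 CPM at 2 d, 12.2, 16.5 and 20.6 CPM at 5 d and 13.6, 6.80 and 17.4 CPM at 7 d. The genotypes did not overlap on CIM at any day. Against the floor of 12 counts per N6 library, MIL1 was at least 14.7-fold higher in wild-type at 2 d, at least 90.2-fold at 5 d and at least 69.2-fold at 7 d (adjusted p = 0.0055, 0.00016 and 0.00019 in edgeR). The genotype difference gave no usable test, since both N6 groups were at 0.

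MEL1, an Argonaute of rice germ cells, rose to 10.9 CPM at 5 d and 10.8 CPM at 7 d in wild-type, against 1.78 CPM on N6. These calls were lost without N6 replicate 1 or 3 of wild-type (adjusted p of 0.06 at 5 d and of 0.059 to 0.06 at 7 d). WDA1, a wax synthesis gene, was at 0 on N6 and at 5 d averaged 4.66 CPM in the line (11.2, 2.11 and 0.656 CPM) and 2.09 CPM in wild-type, at least 24.6-fold and at least 11.5-fold above the N6 floor. At 7 d WDA1 was at 0 in the line and at least 38.6-fold above the floor in wild-type. EAT1, a regulator of tapetal cell death, reached 2.57 CPM at 5 d against 0.267 CPM on N6, a call that was lost without wild-type CIM 5 d replicate 1 (adjusted p = 0.054). GAMYB, which also activates the amylase genes of germinating grain, fell to 26.8 CPM at 5 d and 19.9 CPM at 7 d in wild-type, against 58.0 CPM on N6. In the line GAMYB had 63.4 and 68.9 CPM at 5 and 7 d, against 58.6 CPM on N6. Its 5 d call was lost with library totals (log2 fold change -0.87), with limma on FPKM (-0.86) and without wild-type N6 replicate 2 (-0.99). The genotype difference of GAMYB at 5 d was lost with library totals (0.88) and with limma on FPKM (0.87). The 5 d call of OsTGA10 in wild-type was also lost with library totals (-0.93) and with limma on FPKM (-0.92).

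Marker transcripts of the scutellum did not move as 1 group. The 3 markers of the germinating scutellum summed to 17839 to 27613 CPM in the line at 5 and 7 d, against 326.7 to 1045 CPM in wild-type. On N6 they summed to 14489 to 16175 CPM in the line and 6010 to 7912 CPM in wild-type, and none of the 3 was at 0 throughout a group. The sum is mostly AMY1A, an alpha-amylase, and the other alpha-amylase of the list, Amy3D/E*(RAmy3D/E), lay the other way at 7 d, with 0, 1.22 and 0 CPM in the line against 209, 467 and 172 CPM in wild-type. On CIM at 2 d the sum was 3275 to 11484 CPM in wild-type, which spans its N6 range. The isocitrate lyase gene of the list was already lower there, with 7.13, 1.15 and 3.35 CPM against 26.9, 18.8 and 25.7 CPM on N6. The 2 green leaf markers summed to 5.37 to 47.1 CPM in the line at 5 and 7 d and to 0.0525 to 0.838 CPM in wild-type, and on N6 to 103 to 133 CPM in the line and 15.7 to 30.4 CPM in wild-type. The 2 endosperm markers summed to 1.74 to 26.8 CPM in the line and to 1.18 to 3.50 CPM in wild-type at those days. In wild-type on CIM at 2 d the green leaf sum was 0.430 to 2.05 CPM. Of the 9 markers tested, 0 were called higher and 3 lower there, where 4.3% and 4.01% of all genes were. The part of these shifts in the results at 2, 5 and 7 d was not tested.

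To find the genes with the most similar pattern, Pearson's r of log2(CPM + 1) with OsTDL1B was computed over the 24 libraries for 29709 genes. The points share libraries and groups, so r is a description without a p. In all, 214 genes had r above 0.9 and 20 had r above 0.95, where the median gene had -0.01. The 10 nearest had r from 0.962 to 0.983. They were OsPLT7, Os03g0663700, Os05g0368600, OsNCED1, GRX8, OsbHLH039, the transcript of the OsmiR319a locus, Os03g0164200, Os01g0953801 and ONAC039. They lie on chromosomes 1, 2, 3, 5 and 9, and none on chromosome 10.

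OsPLT7 (Os03g0770700), of the PLETHORA family of AP2-type transcription factors, was the nearest at r = 0.983. In the line it had 0.911, 0.651 and 0.195 CPM on N6. It had 3.30, 0.867 and 2.17 CPM at 2 d, 16.4, 5.96 and 1.10 CPM at 5 d and 0.277, 4.88 and 1.09 CPM at 7 d on CIM. At 5 d the libraries had the same order as for OsTDL1B, as they did for 23.9% of all genes.

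In wild-type, OsPLT7 had 0.552, 0.821 and 1.38 CPM on N6. It had 35.3, 34.4 and 57.5 CPM at 2 d, 55.5, 63.3 and 61.4 CPM at 5 d and 64.2, 55.2 and 65.2 CPM at 7 d. The wild-type CIM libraries lay above all others for OsPLT7 as they did for OsTDL1B.

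GRX8 (Os02g0512400), a CC-type glutaredoxin like MIL1, averaged 8.28, 30.1 and 4.01 CPM in the line on CIM at 2, 5 and 7 d and 143, 195 and 105 CPM in wild-type, with 0.463 CPM in the line and 1.18 CPM in wild-type on N6. ONAC039 (Os03g0327100), described as similar to the Arabidopsis organ boundary gene CUC1, averaged 21.3, 34.3 and 10.3 CPM in the line and 76.3, 114 and 76.5 CPM in wild-type on CIM. OsNCED1 (Os03g0645900), of the family of enzymes that commit carotenoids to abscisic acid, stayed at 13.3 CPM or below in every group. The OsmiR319a locus (Os01g0659400), a non-protein coding transcript, averaged 3.56, 7.32 and 1.17 CPM in the line and 18.5, 23.5 and 31.5 CPM in wild-type on CIM. The mature microRNA was not measured. OsbHLH039 (Os09g0410700), a helix-loop-helix factor, averaged 2.70, 13.5 and 2.39 CPM in the line and 35.1, 52.2 and 32.3 CPM in wild-type on CIM.

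**Figure D5:**
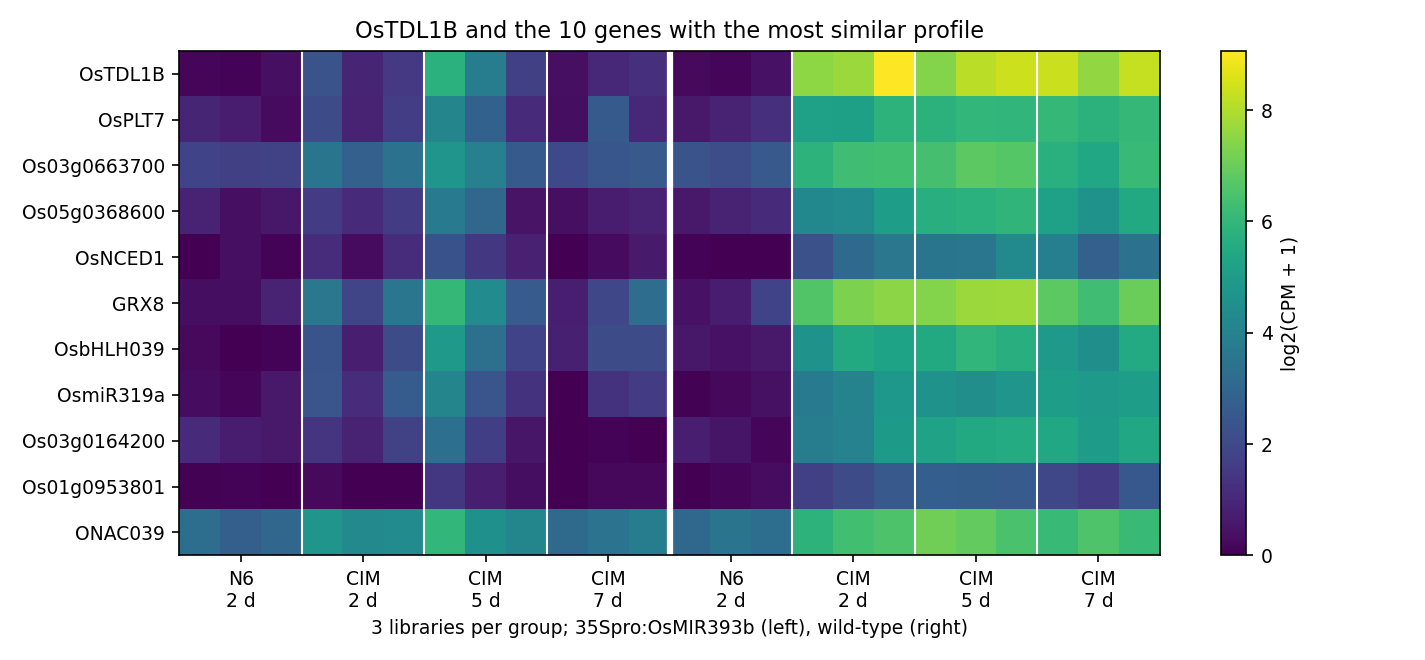
Colour scale of log2(CPM + 1) for OsTDL1B (top) and the 10 genes with the highest r, over the 12 libraries of 35Spro:OsMIR393b (left) and the 12 of wild-type (right), each ordered from N6 to CIM at 7 d with 3 libraries per group. OsTDL1B was chosen by its levels and the 10 genes by their r over these libraries, so the separation of the groups is a description. The wild-type libraries on CIM overlap with replicate 1 of the line at 5 d for OsNCED1, OsbHLH039, OsmiR319a and ONAC039. Within the line all 11 are highest in that replicate.

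The order of replicates was part of what chose the 10 genes, so it is given as a description. The library highest for OsTDL1B was also highest for 2, 8, 10 and 7 of the 10 genes in the line (N6 and CIM at 2, 5 and 7 d) and for 7, 9, 5 and 2 of the 10 in wild-type. Over all genes compared, that library was highest for 32.3%, 33.0%, 41.8% and 29.8% in the line. In wild-type the shares of all genes were 30.1%, 32.6%, 36.1% and 31.6%. The highest library was shared by all 10 in the line at 5 d, where the share of all genes was also the largest. The r of deviations from the group means was 0.72 to 0.92 for the 10 genes.

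The set depended on how likeness was measured. It shared 8 to 10 genes with the sets found under library totals, FPKM, a pseudocount of 0.1 or no filter, and also with those found when any library was left out. Leaving out line CIM 5 d replicate 1 and wild-type CIM 2 d replicate 3 together left 8 of the 10. Spearman's rho shared 5, the 12 wild-type libraries alone shared 3, and the 8 group means shared 2. OsPLT7 was nearest among the wild-type libraries alone as well, and GRX8 was nearest by Spearman's rho (0.965).

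Other genes that the study names and that had a high r included OsPLT6 (r = 0.931, rank 61 of 29709), OsARF16 (0.921, rank 95) and OsARF5 (0.913, rank 123). ARF genes encode auxin response factors. OsLEC1 (OsHAP3E in the file), an NF-Y subunit known from embryos, had r = 0.732, and the receptor OsTIR1, which differs between the genotypes on N6 as well, had r = 0.515. In the pathway list the BZR-like gene Os01g0203000 (0.920, rank 96), GSK2 (0.886) and MSP1 (0.835, rank 1052) were among the nearest, with Os10g0533150 (0.883) between GSK2 and MSP1. At the opposite end of that list lay OsSERL5 (-0.867), BRL3 (-0.828), GSK4 (-0.826) and SEPK1 (-0.808). The co-receptor genes OsSERK1 (-0.13) and OsSERK2 (-0.12) lay near the median gene. OsTDL1A had r = 0.25. MIL1 had r = 0.909 (rank 146). The genes most opposite to OsTDL1B were OsRLCK6 (-0.958) and OsCNGC10 (-0.949).

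The 5 annotated genes on each side of OsTDL1B were examined for a shared regional change, and 6 passed the filter. In wild-type 1 was called higher and 0 lower at 2 d (2 at an unadjusted p under 0.05 in edgeR), 3 and 0 at 5 d, and 3 and 1 at 7 d, where 4.3% and 4.01%, 12.6% and 14.6%, and 14.2% and 14.7% of all genes were called higher and lower. For the genotype difference, 0 were called at 2 d in edgeR and 0 in DESeq2 (0 at an unadjusted p under 0.05), and 1 was higher and 2 were lower in the line at 5 d (11.8% and 6.5% of all genes) and again at 7 d (15.5% and 16.1%). The nearest, Os10g0207400, a conserved hypothetical gene on the plus strand 7288 bp away, averaged 3.12, 4.53 and 5.74 CPM in the line on CIM at 2, 5 and 7 d against 1.99 CPM on N6. In wild-type it averaged 5.66, 14.6 and 15.7 CPM against 2.16 CPM on N6, with log2 fold changes of 1.39 (SE 0.37), 2.76 (SE 0.38) and 2.86 (SE 0.38). Its 2 d call was lost without wild-type CIM 2 d replicate 3 (adjusted p = 0.10) or wild-type N6 replicate 1 (adjusted p = 0.06). Its r with OsTDL1B was 0.816. Its called differences between the genotypes were lost in 7 of the 12 fits that left out a library at 5 d and in 10 of the 12 at 7 d.

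On the other side, Os10g0207700, 17822 bp away, had at most 0.552 CPM as a group mean. It was among the neighbours called higher in wild-type at 5 and 7 d, and its 7 d call was lost in 4 of the 6 fits that left out a library (adjusted p from 0.055 to 0.059) and in DESeq2 (adjusted p = 0.085). Os10g0208500, 60161 bp away, had 8.09, 17.6 and 41.5 CPM in the line and 5.55, 33.9 and 73.3 CPM in wild-type on CIM at 2, 5 and 7 d. In wild-type its libraries overlapped those on N6 at 2 d and lay above them at 5 and 7 d. On the side of Os10g0207400, the citrate transporter gene OsFRDL2, 44178 bp away, was higher in the line, with 28.8 and 44.7 CPM at 5 and 7 d against 12.1 and 13.2 CPM in wild-type, though its called difference at 5 d was lost with library totals (0.71) and without line N6 replicate 3, line CIM 5 d replicate 2 or line CIM 5 d replicate 3. Os10g0207101 lies within OsFRDL2 on the opposite strand, and without strand their reads cannot be told apart. Os10g0208600 was the neighbour called lower in wild-type at 7 d, with 0.19 CPM against 1.03 CPM on N6. At 2 d none of the other neighbours tested was called in wild-type, and those that did not pass the filter had no test. A shared cause of changes in the region was not tested.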

How the data were processed

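The submitters' processing notes name Trimmomatic 0.36, HISAT2 2.1.0, StringTie 1.3.4d and the build IRGSP-1.0. For each of 38866 genes in 24 libraries the authors deposited an estimated count and an FPKM value. Whether UMI-tools, named in the methods, shaped the counts is not known. The kit is not described as stranded.

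Counts were rounded, filtered with filterByExpr, scaled by TMM and fitted in edgeR 4.0.16 (quasi-likelihood, all 24 libraries, R 4.3.3). Calls required 0.05 (Benjamini-Hochberg) and a log2 fold change beyond 1 in size. Each SE was obtained from the fold change and its F statistic. CPM carries no prior count. Profiles were compared as Pearson's r of log2(CPM + 1). The alternatives were RLE factors, library totals, no filter, DESeq2 1.42.0, limma 3.58.1 on log2(FPKM + 0.1), counts divided by 4, only the groups compared, a replicate block, and each library left out. The joint omission of 2 libraries was chosen after seeing the data. Scripts were tested on simulated data.

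Named genes were OsTDL1B, the 10 nearest profiles, 5 neighbours on each side, and lists of pathway, anther and marker genes. The members and lists were chosen with earlier results of these data known. The study calls the libraries of a group biological replicates, each from pooled scutella, and p-values measure the spread between them. Sequences, promoter motifs and a protein search were not analysed here.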

Additional observations from a re-analysis of the deposited data

Results flagged for a closer look

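The change on CIM differed between 35Spro:OsMIR393b and wild-type, by the test of the difference itself in edgeR, for the following genes. Values are differences on the log2 scale, line minus wild-type, so a negative value means a smaller rise or a larger fall in the line.

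At 5 d the pathway genes with a negative difference were OsRLCK54 at -3.45, MSP1 at -2.29, GSK2 at -1.66, OsSERL3 at -1.56, BRL1 at -1.14 and D61 (OsBRI1) at -1.12. SEPK1 had a positive one at 2.97. Among anther genes GAMYB was at 1.23, which was lost with library totals (0.88). Among the chromosomal neighbours Os10g0208500 was at -1.86, Os10g0207400 at -1.57 and OsFRDL2 at 1.06.

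At 7 d the pathway genes with a negative difference were OsRLCK54 at -6.32, OsRLCK184 at -4.49, MSP1 at -2.71, GSK2 at -2.54, D61 at -2.05, BRL1 at -1.89, OsSERL3 at -1.56, GSK1 at -1.34, Os10g0428200 at -1.31 and Os08g0255500 at -1.16. SEPK1 at 3.68 and BRL3 at 1.15 had positive ones, and that of BRL3 was lost with library totals (0.61, adjusted p = 0.074). Among anther genes MEL1 was at -3.75 and GAMYB at 1.78. Among the neighbours Os10g0208500 was at -1.73, Os10g0207400 at -1.33 and OsFRDL2 at 1.57. OsRLCK54 and OsRLCK184 had libraries of the line at or near 0 at that day, so the size of their fitted differences depends on the prior count.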

How the results depend on the processing

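No OsTDL1B ratio over N6 turned its sign with RLE factors, library totals or FPKM. No called change of a pathway, anther or neighbour gene turned its sign under the alternatives run, and the marker list was not put through them. With library totals, however, the balance of all genes called higher and lower turned round in wild-type (at 5 d 16.5% were called higher against 12% lower, at 7 d 19.6% against 11.5%, with a small margin at 2 d) and in the genotype difference at 5 d. The number of pathway genes called in wild-type at 2 d (2) was 4 with counts divided by 4 and ran from 2 to 4 when a library was left out, with 4 without wild-type N6 replicate 1 or without wild-type CIM 2 d replicate 1. In those fits, in that order, 5.33%, 3.53% and 4.43% of all genes were called higher and 5.48%, 3.59% and 3.99% lower. When a library was left out, the counts ran from 8 to 10 at 5 and 7 d in wild-type, and the genotype difference ran from 3 to 9 at 5 d and from 11 to 13 at 7 d, with 0 at 2 d. The nearest profiles shared 5, 2 and 3 of 10 genes under Spearman's rho, the 8 group means and the 12 wild-type libraries. Libraries with the same replicate number did not deviate together (mean correlation of deviations -0.008 for the same number, 0.004 otherwise). With a replicate block the pathway counts were 2, 9 and 9 in wild-type and 0, 7 and 11 for the difference, and it changed the calls of BRL3 (-0.99 at 7 d), OsRLCK184 and Os10g0207400. Of all genes, 3.93%, 12.2% and 13.9% were then called higher in wild-type, and 3.81%, 14.4% and 14.4% lower. For the difference the shares were 0.182%, 11.5% and 15.2% higher, and 0.178%, 6.24% and 15.7% lower. Without line CIM 5 d replicate 1 and wild-type CIM 2 d replicate 3, an omission chosen after seeing the data, the counts were 3, 9 and 10 in wild-type and 0, 9 and 12 for the difference. All genes then had 3.43%, 12.5% and 14.3% called higher in wild-type, and 3.55%, 14.5% and 14.5% lower. Their shares for the difference were 0.255%, 12.7% and 15.3% higher, and 0.202%, 10.5% and 16.3% lower. Of 68 calls of single pathway, anther or neighbour genes, 51 held whichever library was left out. On N6 the depth limits OsTDL1B to 4 to 23 counts per library, so its folds over N6 are coarse.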
